A study of Bos taurus with 39 samples.

Results

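Some entries of a miRNA catalogue have sequences that also occur in abundant non-coding RNAs. A set of 5 such entries was followed here through small RNA sequencing of bovine oocytes: bta-miR-1246, bta-miR-1260b, bta-miR-2478, bta-miR-2887 and bta-miR-2904. They were chosen by name and make up 5 of the 1030 known miRNAs in the deposited table, of which 498 had at least 1 count. Of the 5, 4 had at least 1 count in the 39 libraries. Oocytes were matured in vitro for 1, 6 or 22 h in 4 groups with 3 libraries per group and time, and 3 further control libraries were labelled 0 h. Control oocytes stayed within cumulus-oocyte complexes (COCs) during maturation, and CBX complexes were given carbenoxolone, which closes gap junctions. For co-culture (labelled Coculture), denuded oocytes, stripped of cumulus cells, shared medium with complexes without touching them, and in the DO group (labelled Denuded) denuded oocytes matured alone. All groups used oocytes from slaughterhouse ovaries, freed of cumulus cells before RNA isolation and pooled from more than 1 culture run per library. Carbenoxolone acted on the whole complex, so an effect on the oocyte and one through the cumulus cells cannot be told apart.

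Gap junctions are the channels through which cumulus cells pass small molecules to the oocyte, and the groups were set up to ask what this contact does to the miRNAs of the oocyte. A miRNA is cut by Drosha and Dicer from a hairpin precursor and then guides an Argonaute protein to its targets. Fragments of ribosomal, transfer and small nuclear RNA fall in the same size range and enter the same libraries, and a read is named only by the catalogue sequence it matches. miR-1246 is known to match a stretch of the spliceosomal U2 small nuclear RNA, and miR-1260b and miR-2478 resemble the 3′ ends of transfer RNAs. miR-2887 and miR-2904 resemble ribosomal RNA. No file used here held the mature sequences of the 5 entries, so these likenesses stand as background and were not tested on the reads.

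The gene table of the ARS-UCD2.0 assembly, a later build than the ARS-UCD1.2 to which the reads were aligned, gave the neighbours of 4 of the 5 entries. The miR-1246 gene lay next to a pseudogene (LOC112448341), and the miR-1260b gene lay within MAML2, a coactivator of Notch signalling. The gene nearest to miR-2478 was TRDN, which encodes triadin of muscle. miR-2887 had 2 gene copies, one next to the protein-coding LOC112442278 and one overlapping the pseudogene LOC112444681, whose nearest other neighbour was a ribosomal RNA gene (LOC112444653). No entry matched miR-2904.

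Of the predicted miRNAs, 18 had a sequence in the supplement of the study, and 17 of these were abundant enough to compare with miR-1246 across libraries. The 3 whose levels were most like that of miR-1246 over all 39 libraries are shown because they let the letters be read beside the pattern, and capitals mark the seed, bases 2 to 8.
Predicted miR-824: gUCAGGAUggccgaguggucuaagg
Predicted miR-162: uCCAUCUGgacggcuuggcauuggg
Predicted miR-457: uCCCCGGCaccuccacca
The seeds of the 3 differed. Predicted miR-457 ended in CCA, the letters that mature transfer RNAs carry at their 3′ end, and it was the 1 of the 18 sequences that did. Only this ending was looked for, and other likeness of the 18 sequences to transfer RNAs was not tested. The Spearman coefficient of predicted miR-457 with miR-1246 was 0.339 over the 39 libraries, against 0.420 for predicted miR-824 and 0.351 for predicted miR-162. Without the 3 libraries described in the next paragraph these coefficients were 0.271, 0.307 and 0.185, and the highest of the 17 were then predicted miR-895 (0.349), predicted miR-484 (0.313) and predicted miR-824.

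Known miRNA counts ranged from 4835 to 71350 per library with a median of 30594, so that 3 counts, taken as the floor, made up 0.00420% to 0.0620% of a library. Intervals given for single libraries are exact 95% binomial intervals, and intervals and floors cover counting error only. The miRNA miR-1246 stood apart in 3 libraries, where it held 0.436% of known counts in CBX 22 h replicate 1, 0.768% in CBX 22 h replicate 2 and 0.536% in DO 22 h replicate 2. The other 36 libraries lay between 0.00864% and 0.228% (median 0.0295%). These 3 libraries held 48.2% of all miR-1246 counts, 360 of 747, and 5.52% of all known counts. They also ranked highest when counts were divided by deduplicated reads. Results that rest on them are given with and without them.

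The 5 entries together had 994 counts, 0.0776% of all known miRNA counts. miR-1246 took 747 of them and was the only one of the 5 seen in all 39 libraries, where it ranked 95 among known miRNAs by total count. miR-2887 had 130 counts in 32 libraries, miR-1260b 79 in 30 and miR-2904 38 in 17. miR-2478 had 0 counts in all 39 libraries, which allows a share of up to 0.000234% of the pooled known counts. The summed share per library ran from 0.0187% to 0.806% (median 0.0489%). Without the 3 libraries that stood apart it ran from 0.0187% to 0.496%, and the highest value was then that of control 0 h replicate 1, the library with the fewest known counts.

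For miR-1246, the shares in the control libraries at 0 h were 0.228%, 0.0923% and 0.0532% in replicates 1 to 3, from 11, 24 and 14 counts. At 1 h the control libraries held 0.0506%, 0.0380% and 0.0198%, at 6 h 0.0196%, 0.0715% and 0.0366%, and at 22 h 0.0258%, 0.0347% and 0.0281%. All 3 libraries at 0 h were thus above every control library at 1 and 22 h but overlapped with those at 6 h.

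In the CBX group miR-1246 took 0.0182%, 0.0142% and 0.0170% at 1 h, the lowest mean of the 13 conditions. At 6 h its libraries held 0.0594%, 0.0332% and 0.0438%. At 22 h they held 0.436% (interval 0.372% to 0.508%), 0.768% (0.590% to 0.984%) and 0.0356% (0.0189% to 0.0608%), from 163, 62 and 13 counts. The third CBX library at 22 h was level with the control libraries of that time, just above the highest of them, while the other two lay far above.

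In the co-culture group the shares were 0.0224%, 0.0317% and 0.0214% at 1 h, 0.0128%, 0.0482% and 0.0407% at 6 h, and 0.00864%, 0.0524% and 0.0163% at 22 h. In the DO group they were 0.0269%, 0.0212% and 0.0232% at 1 h and 0.0308%, 0.0438% and 0.0252% at 6 h. At 22 h the DO libraries held 0.0150%, 0.536% (0.450% to 0.634%) and 0.0192%, from 5, 135 and 5 counts. Replicate 2 alone set the DO group apart at 22 h, and the other 2 libraries were below all 3 controls.

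**Figure D1:**
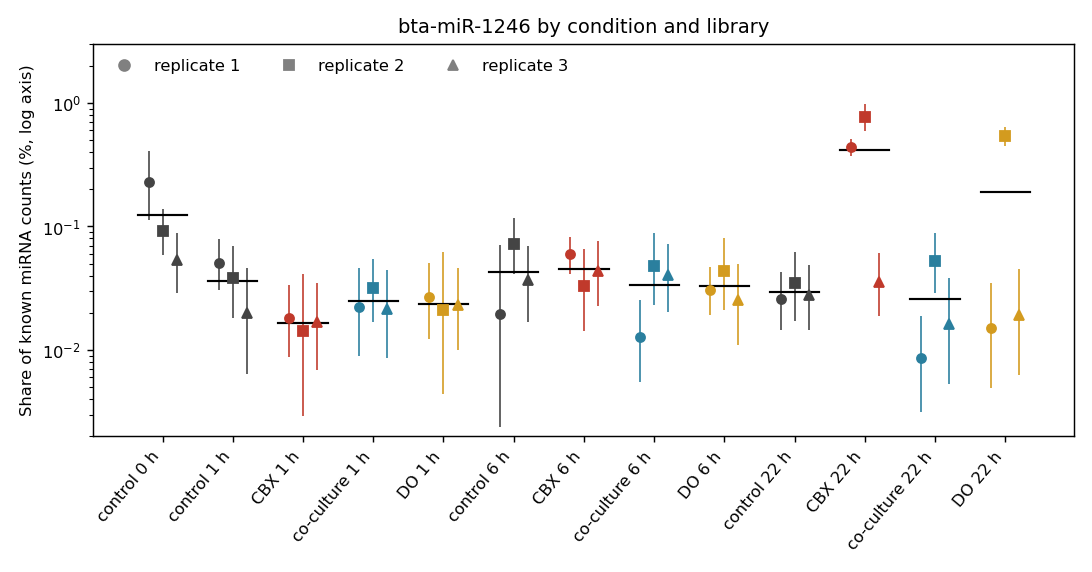
Share of known miRNA counts taken by bta-miR-1246 in each of 39 libraries (vertical axis, percent, log scale) by condition. Circles, squares and triangles are replicates 1, 2 and 3, vertical lines exact 95% binomial intervals and horizontal bars the mean of 3 libraries; CBX 22 h replicates 1 and 2 (0.436% and 0.768%) and DO 22 h replicate 2 (0.536%) lie above all others.

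Ordered by mean share of miR-1246, the first conditions were CBX 22 h (0.413% ± 0.367, SD, n = 3), DO 22 h (0.190% ± 0.300) and control 0 h (0.124% ± 0.0915). The next were CBX 6 h (0.0455% ± 0.0132), control 6 h (0.0426% ± 0.0265), control 1 h (0.0361% ± 0.0155), co-culture 6 h (0.0339% ± 0.0187) and DO 6 h (0.0333% ± 0.00952). Control 22 h (0.0295% ± 0.00464), co-culture 22 h (0.0258% ± 0.0234), co-culture 1 h (0.0252% ± 0.00566), DO 1 h (0.0238% ± 0.00290) and CBX 1 h (0.0165% ± 0.00203) closed the order. Neighbours overlapped in range throughout, except DO 1 h and CBX 1 h, and the 2 highest means were carried by the 3 libraries that stood apart.

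Between groups, the share of miR-1246 was compared over 9 pairs of libraries matched on time and replicate number, by an exact two-sided permutation test with Benjamini-Hochberg adjustment over 6 group pairs. CBX averaged 0.158% and control 0.0361%, a difference of 0.122 percentage points with CBX higher in 5 of 9 pairs (exact permutation p = 0.355, adjusted 0.533). DO averaged 0.0824%, 0.0463 percentage points above control but higher in only 3 of 9 pairs (exact permutation p = 0.969, adjusted 0.969). The adjusted p of the other 4 group pairs lay between 0.367 and 0.544, also in exact permutation tests. Both differences turned when the 3 libraries that stood apart were left out, to -0.00613 percentage points for CBX minus control and -0.0106 for DO minus control.

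Between times, 12 pairs matched on group and replicate number were compared, with adjustment over 3 pairs of times. The share of miR-1246 was higher at 6 h than at 1 h in 10 of 12 pairs, with means of 0.0388% and 0.0254% (exact permutation p = 0.0410, adjusted 0.123). Leaving out replicate 1 turned this into a call, with 8 of 8 pairs higher and an adjusted exact permutation p of 0.0234. At 22 h the mean was 0.165%, but only 6 of 12 pairs were higher than at 1 h (exact permutation p = 0.158, adjusted 0.237). Leaving out the 3 libraries that stood apart gave a difference of -0.00168 percentage points between 22 h and 1 h.

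In single comparisons of 3 with 3 libraries an exact two-sided permutation test cannot give a p under 0.1. The ranges of miR-1246 did not overlap in 7 of 24 such comparisons, each at that smallest p of 0.1. At 1 h, CBX lay below control, co-culture and DO. The share of known miRNAs whose ranges did not overlap was 5.07% for CBX against control, 4.15% for co-culture against CBX and 7.83% for DO against CBX, over the 217 with a mean of at least 1 count. These 1 h values rested on 3 to 19 counts per library, and the counting intervals of CBX replicate 1 (0.00872% to 0.0334%) and control replicate 3 (0.00644% to 0.0463%) overlapped. At 22 h CBX lay above control, where 10.6% of known miRNAs did not overlap, and above CBX at 1 h, where 19.4% did not. The control libraries at 0 h lay above those at 1 h (10.1%) and at 22 h (12.4%). By deduplicated reads, control at 0 h (2.16 to 3.02) overlapped with control at 1 h, while the separations that involve 22 h held.

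Relative to all miRNAs, each comparison was fitted in edgeR's quasi-likelihood test on the known and predicted miRNAs together, blocked by replicate number and adjusted by the Benjamini-Hochberg method. A call needed an adjusted p under 0.05 and a log2 fold change of at least 1 in size. miR-1246 passed the filter on low counts in 14 of the 26 fits, and miR-1260b, miR-2478, miR-2887 and miR-2904 in 0. In the comparisons with CBX at 22 h and with control at 0 h, the libraries in which miR-1246 was high counted toward that filter. In CBX at 22 h against 1 h it passed only through the CBX libraries at 22 h. In co-culture and DO against CBX at 22 h it passed only with the high libraries counted. Its ranks and calls in these fits rest on the same libraries. No member was called by edgeR in any of the 26 fits. miR-1246 had an unadjusted edgeR p under 0.05 in 6 of its 14. Of all miRNAs, 50 of 474 did so in CBX against control and 28 of 447 in co-culture against CBX at 22 h. For CBX at 22 h against 1 h it was 60 of 488, and 26 of 547 for CBX minus control between these times. For control at 1 and 22 h against 0 h it was 16 of 409 and 12 of 432. DESeq2 called miR-1246 in 4 fits, and the share of all miRNAs that it called is not given here. In edgeR, between 388 and 547 miRNAs were tested, and 0% of them were called in 19 of the 26 fits. The others were DO against CBX at 1 h (1.46% called), 6 h (2.35%) and 22 h (0.232%), DO against co-culture at 6 h (0.473%), co-culture against control at 22 h (0.216%), control at 22 h against 1 h (0.440%) and DO at 22 h against 1 h (1.81%). The 19 fits without a call included CBX against control and DO against control at 22 h and co-culture against CBX at 1 h. For each of these the paper lists differentially expressed miRNAs under the same thresholds. The fits here did not recover those calls, and the reason was not tested. Co-culture against control at 22 h, with a call here, had none in the paper.

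At 22 h the log2 fold change of miR-1246 in CBX against control was 3.12 ± 0.80 (SE), the 10th smallest p of 474 tests (edgeR adjusted p = 0.326). CBX was higher in 3 of 3 pairs. The log2 fold change of co-culture against CBX was -3.89 ± 0.75, with co-culture lower in 3 of 3 pairs (edgeR adjusted p = 0.310), and that of DO against CBX was -1.86 ± 0.80 (edgeR adjusted p = 0.991). These comparisons share the CBX libraries. Against its own 1 h libraries, CBX at 22 h was higher by 3.87 ± 0.82 on the log2 scale (edgeR adjusted p = 0.260), in 3 of 3 pairs and with the second smallest p of 488. There miR-1246 passed the filter only through the libraries at 22 h. The change between 1 and 22 h differed between CBX and control by 4.10 ± 1.06 (edgeR adjusted p = 0.456) and between DO and control by 2.27 ± 1.39 (edgeR adjusted p = 0.805).

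**Figure D2:**
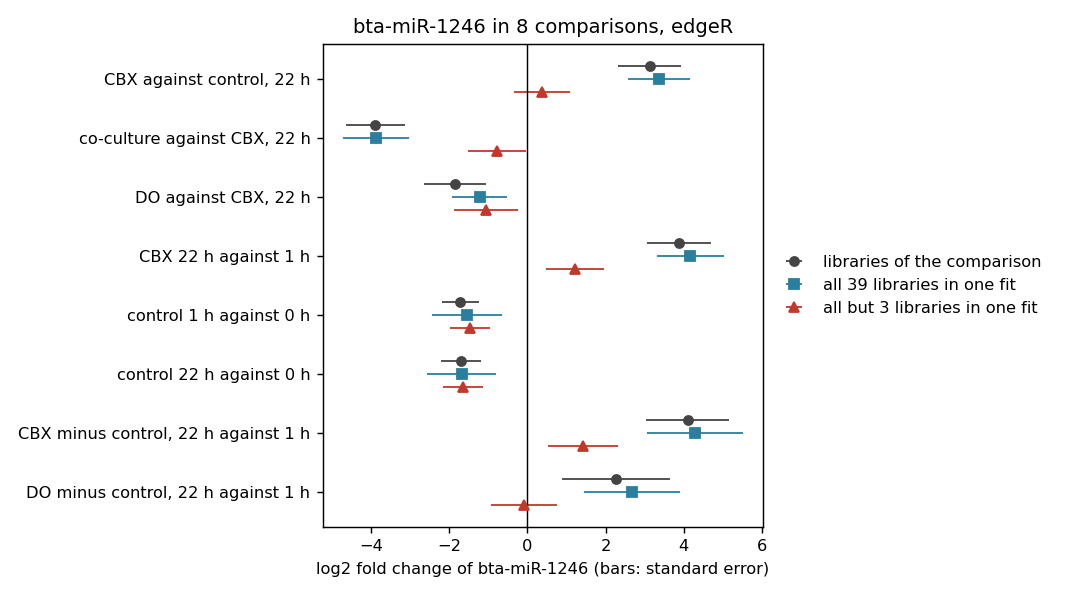
Log2 fold change of bta-miR-1246 in 8 edgeR comparisons (horizontal axis, bars 1 standard error either side). Black circles use the libraries of the comparison, blue squares all 39 libraries in one fit and red triangles that fit without the 3 libraries that stood apart, where CBX against control at 22 h drops from 3.37 to 0.38 and the comparisons with control 0 h stay at -1.46 and -1.65.

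Several of these calls turned on single libraries or on the tool. DESeq2 called miR-1246 in CBX against control (log2 fold change 3.08, DESeq2 adjusted p = 0.00416), co-culture against CBX (-3.74, 6.24e-06), CBX at 22 h against 1 h (3.87, 9.39e-06) and the difference of changes between CBX and control (4.25, 0.0154). Fits without 1 replicate number left 2 libraries per condition, so their p-values rest largely on a spread shared with the other miRNAs. Without replicate 2, edgeR called miR-1246 in CBX against control at 22 h (2.62, edgeR adjusted p = 2.45e-05), where 1 of the 2 remaining CBX libraries was high. Co-culture against CBX was called without replicate 1 (-2.75, edgeR adjusted p = 0.0293) and without replicate 2 (-4.29, edgeR adjusted p = 5.81e-14). DO against CBX was called without replicate 2 (-3.52, edgeR adjusted p = 4.12e-11) and without replicate 3 (-2.35, edgeR adjusted p = 0.0161). In CBX at 22 h against 1 h, miR-1246 was called without replicate 2 (3.20, edgeR adjusted p = 1.30e-06) and without replicate 3 (4.90, edgeR adjusted p = 1.71e-10). The difference of changes between CBX and control was called without replicate 3 (5.44, edgeR adjusted p = 0.0292), and DO against co-culture at 22 h, where miR-1246 otherwise missed the filter, without replicate 1 (2.70, edgeR adjusted p = 0.0419). A fit over all 39 libraries called it in CBX against control (3.37 ± 0.80, edgeR adjusted p = 0.0252), in co-culture against CBX (-3.88, edgeR adjusted p = 0.0206) and in CBX at 22 h against 1 h (4.17, edgeR adjusted p = 0.0200). The same fit without the 3 libraries that stood apart gave 0.38 ± 0.72 (edgeR adjusted p = 1.000), -0.78 and 1.23 and called none of them. That fit left 1 CBX library at 22 h, which was assumed to vary like the other groups. The share of all miRNAs called in these alternative fits is not given here, so the calls cannot be set against it.

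The control libraries at 0 h differed from later ones in the other direction of time. The log2 fold change of miR-1246 was -1.72 ± 0.48 at 1 h against 0 h, the third smallest p of 409 (edgeR adjusted p = 0.425), and -1.70 ± 0.51 at 22 h against 0 h (edgeR adjusted p = 0.764). By share of known counts all 3 pairs were lower in both, but neither comparison was called. In both, miR-1246 passed the filter only through the libraries at 0 h, where it was high. The fit over all libraries but the 3 that stood apart gave -1.46 and -1.65. The 6 further comparisons in which miR-1246 was tested had log2 fold changes between -0.86 and 0.25 (edgeR adjusted p between 0.721 and 0.998).

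Markers of other cells were read beside these libraries as shares of known counts. The 6 blood miRNAs summed to between 0.00535% and 0.0248% in CBX at 22 h and between 0.00172% and 0.0187% in control, and 5 of the 6 had counts, miR-142-3p being at 0. The 4 granulosa and cumulus miRNAs summed to between 0.131% and 0.273% in CBX, 0.0691% and 0.199% in DO and 0.108% and 0.187% in control at 22 h, with miR-212 at 0. The 4 muscle miRNAs summed to between 0.0868% and 0.342% in CBX, 0.0511% and 0.227% in DO and 0.00936% and 0.552% in control, with miR-133b at 0. In co-culture at 22 h the lists summed to between 0% and 0.0225% (blood), 0.111% and 0.127% (granulosa and cumulus) and 0.0202% and 0.0327% (muscle). The ranges of CBX and DO overlapped with control for all 3 lists. Co-culture lay wholly below CBX for the granulosa and cumulus list and below CBX and DO for the muscle list. Of 217 single known miRNAs, 11.5% had ranges that did not overlap for co-culture against CBX at 22 h. For DO against co-culture at 22 h this share was 8.76%. No miRNA defines the oocyte itself. The part of these lists in the miR-1246 values was not tested, nor was that of depth. CBX 22 h replicate 2 had 8068 known counts, CBX 22 h replicate 1 37386 and DO 22 h replicate 2 25188.

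The transfer RNA-like miR-1260b never exceeded 7 counts in a library. Its counts in the 3 control libraries at 0 h were 6, 3 and 1, and in DO at 1 h they were 7, 2 and 2. DO at 22 h had 6, 2 and 2 counts, and CBX at 22 h had 2, 0 and 0. At these depths a library with 0 counts could not be told from one with a few, and 9 libraries were at 0. The libraries in which miR-1246 was high did not stand out here, with 2 and 0 counts in CBX replicates 1 and 2 and 2 in DO replicate 2.

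The ribosomal RNA-like miR-2887 had its highest summed count in control at 22 h, with 16, 8 and 5 counts or 0.0275%, 0.0252% and 0.0117% of known counts. In CBX at 22 h its counts were 1, 3 and 2, in co-culture 6, 4 and 1, and in DO 1, 6 and 3. As a share these overlapped with control, since the 3 counts of CBX 22 h replicate 2 made up 0.0372% of that shallow library. Its mean share was higher in control at 0 h (0.0434% ± 0.0523, SD, n = 3) than in control at 22 h (0.0215% ± 0.00854). The largest share, 0.103%, came from 5 counts in control 0 h replicate 1, and 7 libraries were at 0.

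miR-2904, the other ribosomal RNA-like entry, was at 0 in 22 libraries. Its highest count was 11 in co-culture 1 h replicate 1, while replicates 2 and 3 of that condition had 0 and 1. This library alone held 28.9% of all miR-2904 counts. DO 22 h replicate 2 followed with 5 counts and both other DO libraries at 22 h had 0.

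**Figure D3:**
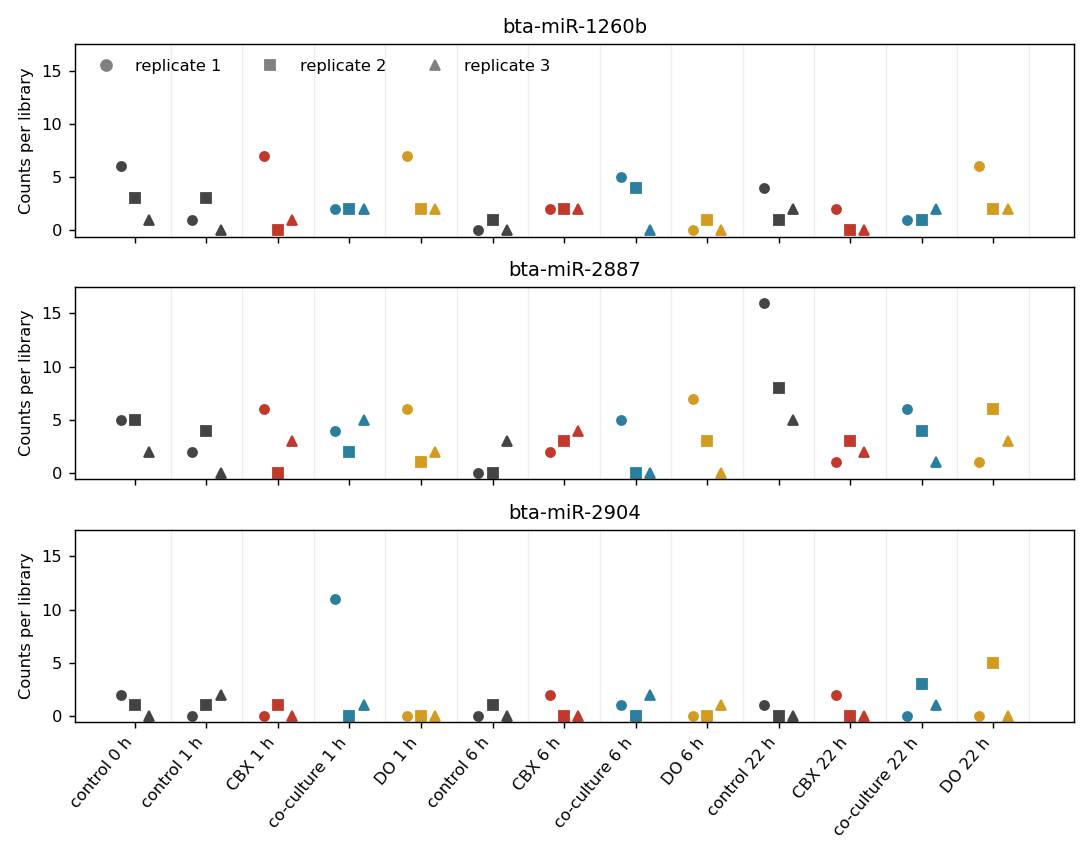
Counts per library (vertical axis) of bta-miR-1260b, bta-miR-2887 and bta-miR-2904 by condition; circles, squares and triangles are replicates 1, 2 and 3. The highest values are 7, 16 and 11 counts, and bta-miR-2904 is at 0 in 22 libraries.

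miR-1260b, miR-2478, miR-2887 and miR-2904 together held 247 counts, 0.0193% of known counts, and between 0% and 0.269% per library. In the 3 libraries in which miR-1246 stood apart they took between 0.0134% and 0.0516%, from 3 to 13 counts. This was within the range of the others, but the median was 0.0372% in these 3 libraries and 0.0169% in the other 36. The summed share of these entries was higher at 22 h than at 6 h in 10 of 12 pairs, with means of 0.0235% and 0.0124% (exact permutation p = 0.0288, adjusted 0.0864). It was lower at 6 h than at 1 h in 8 of 12 pairs, from a mean of 0.0204% (exact permutation p = 0.125, adjusted 0.188). Between groups the adjusted exact permutation p lay between 0.734 and 0.965, and the ranges overlapped in all 24 comparisons of 3 with 3 libraries.

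For all 5 entries summed, CBX averaged 0.175% and control 0.0526% over the 9 pairs, 0.122 percentage points apart with CBX higher in 4 of 9 pairs (exact permutation p = 0.336, adjusted 0.672). DO averaged 0.104%, 0.0514 percentage points above control, and was higher in 4 of 9 pairs (exact permutation p = 0.859, adjusted 0.859). From 1 to 22 h the mean went from 0.0458% to 0.188%, with 8 of 12 pairs higher (exact permutation p = 0.158, adjusted 0.237). With the 3 libraries that stood apart left out, the differences were -0.00434 percentage points for CBX minus control, -0.00778 for DO minus control and -0.00338 for 22 h minus 1 h.

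The miRNAs whose levels were most like that of miR-1246 were sought among the 450 others with a mean of at least 10 counts, by Spearman's coefficient of CPM, counts scaled to a common total of known and predicted miRNAs, over the 39 libraries. The 5 closest were predicted miR-39 (0.503), miR-11976 (0.488), predicted miR-506 (0.481), miR-328 (0.466) and predicted miR-746 (0.450), against a median of -0.0449. These are descriptions, and the points share replicate numbers, depth and a common total. Within the 13 libraries of one replicate number, the coefficient of predicted miR-39 was 0.423, 0.341 and 0.341, and that of miR-11976 was 0.215, 0.511 and 0.352. The coefficient of miR-328 ranged from 0.0385 to 0.775 within replicate numbers.

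Without the 3 libraries that stood apart, predicted miR-39 stayed first at 0.501 and miR-11976 fell to 0.349. miR-11976 reached 578 CPM in CBX 22 h replicate 1, 1064 in CBX 22 h replicate 2 and 1059 in DO 22 h replicate 2, from 53, 20 and 62 counts. miR-1246 was at 1777, 3299 and 2306 CPM in the same libraries. Predicted miR-39 was at 131, 1117 and 325 there, so that only its CBX 22 h replicate 2 value stood above its other libraries. Of the 5, predicted miR-746 was the only one called in any fit, lower in DO than in CBX at 6 h by a log2 fold change of -1.07 ± 0.31 (edgeR adjusted p = 0.0259).

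**Figure D4:**
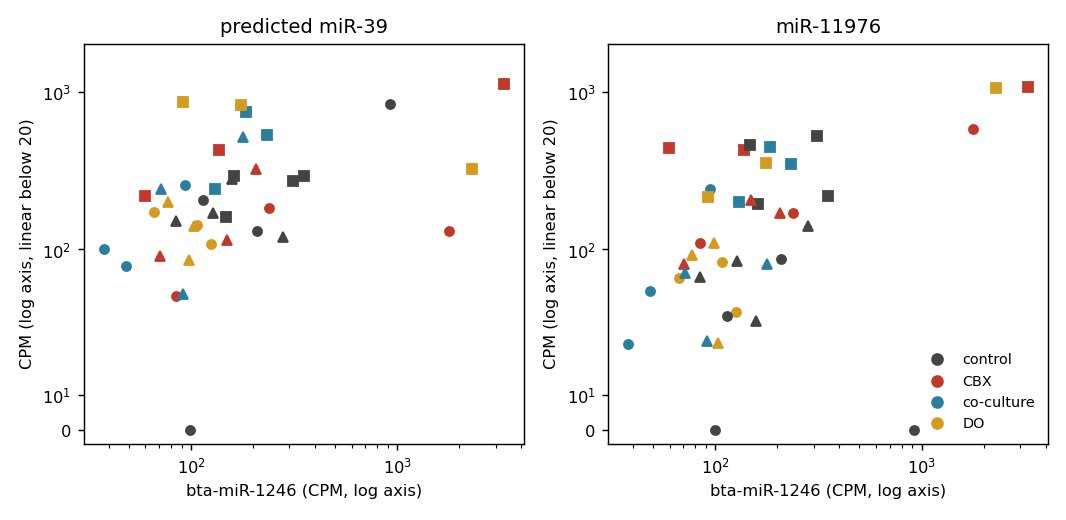
CPM of predicted miR-39 (left) and miR-11976 (right) against those of bta-miR-1246 in 39 libraries, on log axes that are linear below 20 on the vertical. Circles, squares and triangles are replicates 1, 2 and 3; the 3 libraries at 1777 to 3299 CPM of miR-1246 reach 578 to 1064 for miR-11976 and 131 to 1117 for predicted miR-39.

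Entries reported to derive from small nucleolar RNAs, which guide the modification of ribosomal RNA, were read for comparison. Their genes overlapped protein-coding genes only in the ARS-UCD2.0 annotation. A small nucleolar RNA gene was the nearest other gene for 1 copy of miR-1248 and for miR-1291. This origin was not tested on the reads. miR-1839 had 489 counts in 38 libraries, miR-664b 82 in 27, miR-1291 18 in 10, miR-664a 7 in 4 and miR-1248 1 in 1. Only miR-1839 passed the filter, and 0 of the 5 were called in the 26 fits. miR-1839 had a log2 fold change of 0.40 in CBX against control at 22 h (edgeR adjusted p = 0.784) and of 0.03 in CBX at 22 h against 1 h (edgeR adjusted p = 0.975), in the libraries where that of miR-1246 was 3.12 and 3.87.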

How the data were processed

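The deposited tables give unnormalized read counts for each mature miRNA, which the authors made from the forward reads of a QIAseq miRNA library after removal of duplicates by unique molecular identifier. The submitters' processing notes name FastQC 0.11.9, UMI-tools 1.1.2 and the ARS-UCD1.2 build, and the paper names miRBase and miRPro. How reads matching several places were counted is not given in the sources used here, so a read shared with another RNA may enter an entry's count.

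Members and lists were chosen with earlier results of these data known. Named miRNAs were the 5 members, the list reported to derive from small nucleolar RNAs and the 5 miRNAs most like miR-1246. Shares were taken of known counts, with exact permutation tests in scipy 1.17.1. Counts were tested in edgeR 4.0.16 (limma 3.58.1, R 4.3.3), with TMM normalization, filterByExpr (minimum count 10, minimum total 15) and the replicate number as block. The study's model held the ovary pool as batch, and that the replicate number marks this pool is an assumption, since the labels do not say so. A standard error is the log2 fold change divided by the root of its F. DESeq2 1.42.0 was an alternative. Both tools were run on simulated counts with 1 spread for all miRNAs and no outlying libraries. That run therefore does not bear on values that rest on single high libraries. Permutation p-values measure the spread between libraries, each a pool of oocytes. Those of edgeR and DESeq2 also use a spread shared across miRNAs. Deduplicated read totals came from the supplement of the study and served only as an alternative divisor.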

Additional observations from a re-analysis of the deposited data

Results flagged for a closer look

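The share of bta-miR-1246 in CBX against control moved in opposite directions at 1 and 22 h. It was lower in CBX in 3 of 3 pairs at 1 h, with a mean difference of -0.0197 percentage points, and higher in 3 of 3 pairs at 22 h, with a mean difference of 0.384 percentage points. At 22 h this mean rested on CBX replicates 1 and 2 (0.436% and 0.768%), and in the third pair CBX held 0.0356% and control 0.0281%. The third pair at 1 h held 0.0170% in CBX and 0.0198% in control, from 7 and 5 counts. With counts divided by deduplicated reads and scaled to a common total, this pair turned, with 0.796 in CBX and 0.528 in control. The lower level of CBX in 3 of 3 pairs at 1 h thus holds for the share of known counts only. At 22 h the direction of all 3 pairs was kept with either divisor. In that comparison at 1 h miR-1246 missed the edgeR filter. The log2 fold change at 22 h was 3.37 in the fit over all libraries and 0.38 without the 3 libraries that stood apart. The difference of CBX against control between 1 and 22 h had an edgeR adjusted p of 0.456 and a DESeq2 adjusted p of 0.0154. Conditions with 3 libraries were too small for a test of single outlying samples.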

How the results depend on the processing

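Beside the block by replicate number, a fit with no replicate block called 0 members between groups, 0 between times and 0 in interactions, and it changed no call of the share tests, of which 0 passed for the summed share, for miR-1246 and for the other 4 members. Same-numbered libraries correlated in every pair over 0.1 in 9 of 24 comparisons. The mean correlation of a comparison ran from -0.0118 to 0.469, with a median of 0.221. Positive correlation was thus common, but the numbers were not shown to pair the libraries in every comparison. The main count of called members was 0 in each family. Between groups it became 2 with DESeq2, 1 with no low-count filter, 1 with known miRNAs only and 2 in the fit over all libraries. Between times it became 1 with library sizes from deduplicated reads, 1 with DESeq2, 1 with no low-count filter and 1 in the fit over all libraries, and in interactions 1 with DESeq2. Each of these calls was miR-1246. Leaving out 1 replicate number gave between 1 and 3 calls between groups, between 0 and 1 between times and between 0 and 1 in interactions, and between 0 and 1 comparisons of the miR-1246 share between times passed. The share of all miRNAs called under these alternatives is not given here, and the cause of these changes was not tested.

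The log2 fold change of miR-1246 in DO minus control at 22 h against 1 h ranged from -0.15 to 3.47 with 1 replicate number left out and was -0.0904 in the fit without the 3 libraries that stood apart. With 1 replicate number left out, the DO minus control difference ranged from -0.00285 to 0.0803 percentage points for the summed share and from -0.00670 to 0.0733 for miR-1246, the lowest without replicate 2. Without the 3 libraries it was -0.00778 and -0.0106, that of CBX minus control -0.00434 and -0.00613, and that of 22 h minus 1 h -0.00338 and -0.00168. Of 96 values of the 8 named log2 fold changes under alternatives, 75 kept direction and side of the threshold and 19 passed it anew. The fit over all libraries, and leaving out the 3 libraries, were chosen after seeing the data. All entries but miR-1246 missed the main filter. miR-1260b, miR-2887 and miR-2904 were tested in some alternatives, with 0 calls. Their lowest edgeR adjusted p was 0.0946, for miR-2904 in DO against co-culture at 1 h with no low-count filter.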
